A study of Mus musculus with 12 samples.

Results

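The genes of cholesterol and fatty acid synthesis that are classical targets or regulators of the sterol regulatory element binding proteins (SREBPs) were followed in regulatory and conventional T cells of mice given a stapled peptide directed at FOXP3. The set was given by name: 34 symbols, of which 31 were listed in both deposited tables, out of 9784 symbols that the tables share. Cyp51 and Fads2 were not analysed here, and Sc4mol is an older symbol of Msmo1, which was measured. The 31 genes fall into 5 roles: 7 of the mevalonate pathway, 10 of the sterol branch, 5 regulators, 1 sterol carrier (Stard4) and 8 of fatty acid synthesis, desaturation and elongation. The genes were chosen with earlier results of these data known, so the shares given below are not independent of those results. None of the 31 shares its values with another symbol.

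RNA was sequenced in 12 libraries from B6.Cg-Foxp3tm2Tch/J mice (FOXP3-IRES-GFP), in which cells that express FOXP3 also make GFP. Controls and treated animals carry the same reporter allele. Of these, 6 libraries hold CD4+CD25+FOXP3+ regulatory T cells (Treg) and 6 hold naive CD4+ conventional T cells (Tcon). The mice received vehicle (DMSO in the titles) or 25 mg/kg of SAH-FOXP3(229-259)C, called SAH below, by intraperitoneal injection once a day for 2 days. For each cell type there is 1 vehicle and 2 SAH libraries from lymph node (numbers 01, 02 and 03) and 1 vehicle and 2 SAH libraries from spleen (04, 05 and 06). The labels give no ages and do not say whether libraries come from separate or pooled mice. The p-values therefore reflect no more than the scatter among these libraries, which may be technical. Values are CPM, read counts scaled to library size, as the file headers name them. They are not divided by transcript length, so levels are compared only within a gene.

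SREBPs are transcription factors held in the membrane of the endoplasmic reticulum. When sterols run low, the escort protein SCAP carries them to the Golgi, where proteases release the active part. When sterols are plentiful, INSIG1 and INSIG2 hold SCAP back. The SREBP2 form chiefly drives genes of cholesterol synthesis and uptake, and the SREBP1 form chiefly drives fatty acid synthesis. INSIG1 is itself an SREBP target, so its RNA is widely used as a readout of the pathway. T cells raise both branches when they are activated and grow.

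Promoter windows, from 250 bases before to 50 bases after the gene start, were present for 24 of the 31 genes in RefSeq (GRCm38.p6). The windows missing are those of Fdps, Fdft1, Sqle, Stard4, Scd1, Scd2 and Fads1. Motifs were searched by their letters on both strands. A CCAAT box, the site of the factor NF-Y that binds beside SREBPs at many of their targets, stood in 20 of the 24 (83.3%), against 37.4% of all 32851 windows and 43.4% of the 7584 genes listed in both tables that have one. The letters TCACNCCAC of a classical sterol regulatory element stood in 1 of the 24 (4.17%), Hmgcs1. They stood in 1.24% of all windows and in 1.34% of the listed genes. A GC box (GGGCGG), a site of the factor SP1, stood in 19 (79.2%), against 35.7% of all windows and 70.8% of the listed genes, and an E-box (CACGTG) in 6 (25.0%), against 7.15% and 12.4%. In the windows shown, no match of 1 motif overlapped a match of another, and a match is a description of the letters only. The bases before the start are shown for Hmgcs1, which holds the sterol element, and for Insig1 and Fasn, whose values the results turn on. Starts differ between RefSeq and the GENCODE annotation used for the gene coordinates below, and the 49 bases of the Insig1 window that lie inside its GENCODE gene are left out. Capitals mark CCAAT or its complement ATTGG and, in Hmgcs1, the sterol element. They lie at chr13:119690101-119690350 (+ strand), chr5:28071162-28071362 (+) and chr11:120824548-120824797 (- strand, shown as transcribed).
Hmgcs1: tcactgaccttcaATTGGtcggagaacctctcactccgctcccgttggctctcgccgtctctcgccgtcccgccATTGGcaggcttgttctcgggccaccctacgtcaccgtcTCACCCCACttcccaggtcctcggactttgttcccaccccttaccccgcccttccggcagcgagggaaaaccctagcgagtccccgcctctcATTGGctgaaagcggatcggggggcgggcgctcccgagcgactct
Insig1: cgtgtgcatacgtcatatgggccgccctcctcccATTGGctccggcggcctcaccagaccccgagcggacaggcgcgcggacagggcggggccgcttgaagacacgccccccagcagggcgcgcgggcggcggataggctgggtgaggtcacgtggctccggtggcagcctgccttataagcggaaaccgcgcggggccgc
Fasn: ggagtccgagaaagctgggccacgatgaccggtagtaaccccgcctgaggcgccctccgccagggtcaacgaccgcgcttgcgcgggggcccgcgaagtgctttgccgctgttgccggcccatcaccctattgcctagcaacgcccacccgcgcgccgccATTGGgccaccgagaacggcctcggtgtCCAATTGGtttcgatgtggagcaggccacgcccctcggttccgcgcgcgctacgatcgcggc
Hmgcs1 carries 3 CCAAT boxes before its RefSeq start and the sterol element between bases 137 and 129 upstream. Insig1 has 1 CCAAT box, and Fasn has 3, of which 2 overlap each other.

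In Tcon, SAH was followed by higher RNA of Fasn, Scd2 and Insig1, and none of the 31 genes fell. Fasn encodes fatty acid synthase, Scd2 a stearoyl-CoA desaturase and Insig1 the sterol-sensing retention protein. These 3 of 31 genes were called higher where 0.88% of all 9886 Tcon genes were, and 0 of 31 were called lower, against 0.162% (limma, adjusted p below 0.05 over all genes). The whole set leaned the same way: 26 of 31 estimates were above 0 and 5 below, with a median difference of 0.17 in log2(CPM + 1), where all Tcon genes had a median of -0.0028 and 48.9% above 0. In 17 of 31 genes all 4 SAH libraries lay above the vehicle library of their organ, which 16.6% of all genes did, and in 0 of 31 all 4 lay below, which 16.7% did. At an unadjusted p below 0.05 the fit picked 14 of the 31 and 1391 of all genes. In bulk samples like these, fewer or more cells of a type and less or more RNA per cell cannot be told apart.

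Insig1 (chromosome 5, 28071363 to 28078662 in mm10) stood at 103 CPM in the lymph node vehicle library of Tcon and at 135 and 154 CPM in the SAH libraries. In spleen it stood at 124 CPM with vehicle and at 162 and 181 CPM with SAH. All 4 SAH libraries were above both vehicle libraries. The difference was 0.47 on the log2(CPM + 1) scale (SE 0.068), a 1.39-fold rise, with an adjusted p of 0.0166 in limma.

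Fasn (chromosome 11, 120805846 to 120824547) was at 122 CPM with vehicle and 162 and 161 CPM with SAH in lymph node Tcon. In spleen Tcon it was at 113 CPM with vehicle and 158 and 177 CPM with SAH. The groups did not overlap within or across organs. SAH exceeded vehicle by 0.48 in log2(CPM + 1) (SE 0.063; 1.40-fold; adjusted p = 0.00974, limma).

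Scd2 (chromosome 19, 44293674 to 44306864) was at 82.5 CPM with vehicle and 111 and 105 CPM with SAH in lymph node Tcon, and at 39.4 CPM with vehicle and 59.4 and 53.3 CPM with SAH in spleen Tcon. Each SAH library was above the vehicle library of its organ, while the organs themselves were far apart. The difference was 0.45 (SE 0.064; 1.36-fold; adjusted p = 0.0163, limma). Scd1 and Scd2 are close relatives whose reads the counting could have split, and Scd1 was low, with 1.84 to 2.96 CPM in Tcon.

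**Figure D1:**
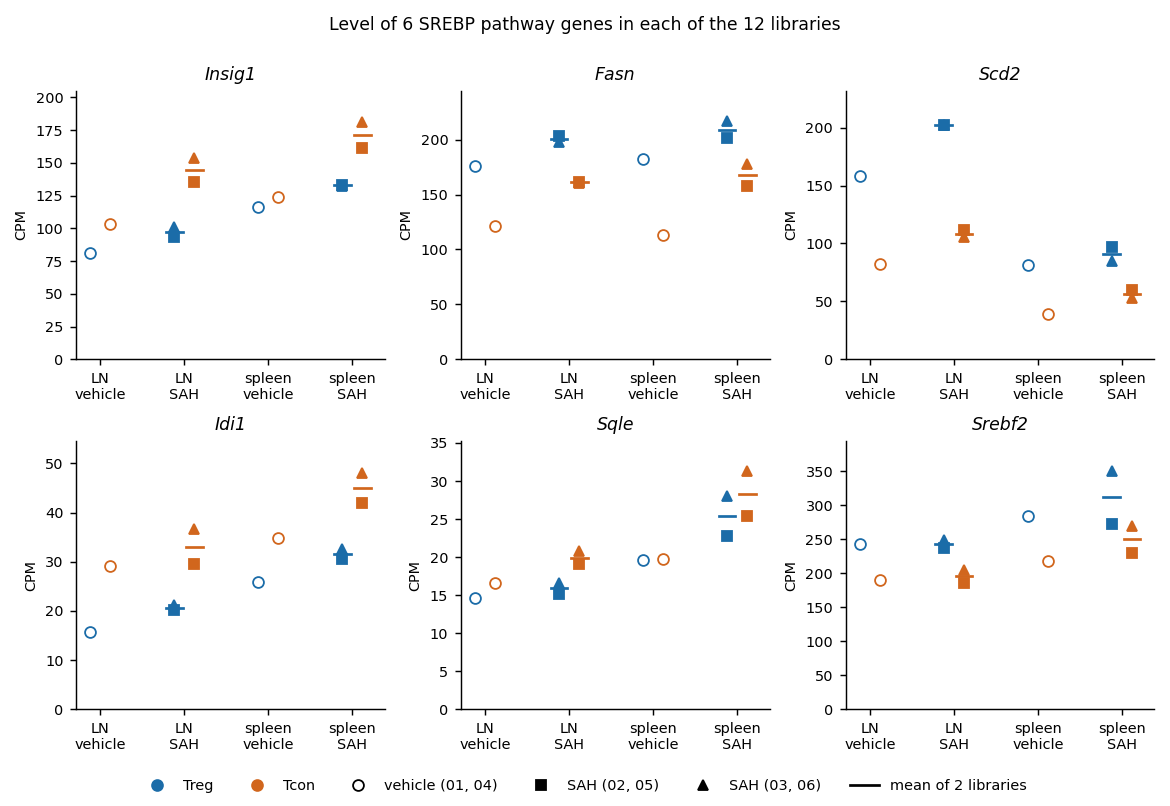
Level in CPM (vertical axes, starting at 0) of 6 genes in each of the 12 libraries, by organ and treatment, with Treg in blue and Tcon in orange. Open circles are vehicle libraries, filled squares and triangles the 2 SAH libraries, and a line marks their mean. Insig1 in lymph node Tcon is at 103 CPM with vehicle and at 135 and 154 CPM with SAH, and within each cell type every spleen library of Scd2 is below every lymph node library.

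The calls of these 3 genes rest on few libraries, since each organ has 1 vehicle library. Without library 03, without library 04 and without the intensity trend of the model, 0 of the 3 passed, with adjusted p from 0.0658 to 0.200 in limma. Without library 01, Fasn alone passed. The estimates themselves stayed between 0.39 and 0.56 in these fits. In the authors' deposited table, Fasn, Insig1, Scd2 and also Sqle are called higher in Tcon, with a false discovery rate of 0.0219 for Sqle, and none of the 31 lower. Over all 9886 Tcon genes that table calls 215 higher and 102 lower.

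Mevalonate genes of Tcon lay on the same side without passing the test: 7 of 7 estimates were above 0, with a median of 0.20. Fdps, which makes farnesyl diphosphate, was at 14.7 CPM with vehicle and 17.7 and 16.7 CPM with SAH in lymph node. In spleen it was at 17.5 CPM with vehicle and 20.7 and 27.6 CPM with SAH (difference 0.32, SE 0.11, adjusted p = 0.211, limma). Idi1, the isomerase of isopentenyl diphosphate, differed by 0.26 (SE 0.094, adjusted p = 0.241), and Hmgcs1, the synthase of HMG-CoA, by 0.20 (SE 0.073, adjusted p = 0.246). Acat2, which condenses acetyl-CoA, was 1 of 7 genes of the whole set with all 4 SAH libraries (25.6 to 29.1 CPM) above both vehicle libraries (22.6 and 24.2 CPM), where 10% of all genes had that.

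In the sterol branch of Tcon, 8 of 10 estimates were above 0 and none passed. Sqle, the squalene epoxidase of the first oxygenation step, came nearest, at 16.6 CPM with vehicle and 19.0 and 20.8 CPM with SAH in lymph node. In spleen its levels were 19.8 CPM with vehicle and 25.4 and 31.3 CPM with SAH (difference 0.37, SE 0.096, adjusted p = 0.108, limma). All SAH libraries of Sqle lay above the vehicle of their organ, but the lowest SAH value was below the spleen vehicle value. The 2 negative estimates were those of Tm7sf2 (-0.11), a sterol reductase, and Ebp (-0.07), a sterol isomerase. Differences within this branch ran from -0.11 to 0.37.

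The remaining fatty acid genes of Tcon were uneven. Acaca, the acetyl-CoA carboxylase that opens the pathway, was at 23.5 and 24.7 CPM in the vehicle libraries and between 25.8 and 34.3 CPM with SAH (difference 0.27, SE 0.076, adjusted p = 0.145). Acly, which supplies cytosolic acetyl-CoA, differed by only 0.05, with 239 to 279.6 CPM over the 6 libraries. Estimates were negative for Elovl6 (-0.07), an elongase, and Fads1 (-0.12), a desaturase of polyunsaturated fatty acids. The 8 fatty acid genes thus ran from -0.12 for Fads1 to 0.48 for Fasn.

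Of the regulators in Tcon, only Insig1 was called. Srebf1, which encodes SREBP1, had 69.2 and 63.7 CPM with vehicle and 70.1 to 73.8 CPM with SAH (difference 0.11, SE 0.054, adjusted p = 0.409). Srebf2, which encodes SREBP2, had 189.6 and 219 CPM with vehicle and 186 to 270.1 CPM with SAH (difference 0.11, SE 0.075, adjusted p = 0.566). Scap was nearly level, at 87.3 to 88.8 CPM in all 6 libraries, with a 95% interval of the difference from -0.10 to 0.13. Its estimate of 0.01 turned to -0.03 when libraries were rescaled to equal totals. Insig2, the relative of Insig1, was at 8.46 to 11.7 CPM (difference -0.06, interval -0.27 to 0.15).

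In Treg, none of the 31 genes was called after SAH. The count was 0 higher, against 0.135% of all 10405 Treg genes, and 0 lower, against 0.0673% (limma). At an unadjusted p below 0.05 the fit picked 10 of the 31 and 733 of all genes, and the authors' deposited table calls 3 of the 31 higher: Scd2, Idi1 and Insig1. Over all 10405 Treg genes that table calls 38 higher and 11 lower. Signs leaned as in Tcon, with 26 of 31 estimates above 0 and a median of 0.09, where all Treg genes had a median of 0.0035 and 51.8% above 0. In 13 of 31 genes all 4 SAH libraries lay above the vehicle of their organ (13.4% of all genes), and in 0 all 4 lay below (11.7%).

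Idi1 (chromosome 13, 8885501 to 8892451) had the smallest p among the 31 in Treg. It stood at 15.8 CPM with vehicle and 20.1 and 21.1 CPM with SAH in lymph node, and at 25.8 CPM with vehicle and 30.6 and 32.6 CPM with SAH in spleen. Every SAH library was above its own vehicle library, but the lymph node SAH values stayed below the spleen vehicle value. The difference was 0.32 (SE 0.071, adjusted p = 0.126, limma).

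Insig1 in Treg was at 80.9 CPM with vehicle and 93.3 and 101 CPM with SAH in lymph node, and at 116 CPM with vehicle and 133 CPM in each SAH library in spleen (difference 0.23, SE 0.052, adjusted p = 0.162). Scd2 in Treg was at 158 CPM with vehicle and 203 and 202 CPM with SAH in lymph node, and at 81.5 CPM with vehicle and 97.1 and 85.2 CPM with SAH in spleen (difference 0.25, SE 0.062, adjusted p = 0.201). Both were above vehicle in 4 of 4 SAH libraries. Leaving out library 06 brought Insig1 (adjusted p = 0.0304) and Scd2 (adjusted p = 0.000969) past the threshold, and these were the only 2 members called in any fit that left out 1 library.

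Fasn in Treg was at 176 and 182 CPM with vehicle and at 198 to 217 CPM with SAH, the single gene of the 31 whose 4 SAH libraries all lay above both vehicle libraries, against 5.01% of all genes (difference 0.19, SE 0.050, adjusted p = 0.272). Fdps differed by 0.31 (SE 0.096, adjusted p = 0.417), with 10.6 and 14.9 CPM in the vehicle libraries and 12.6 to 21.7 CPM with SAH. Srebf1 differed by 0.17 (SE 0.059, adjusted p = 0.491), with 4 of 4 SAH libraries above their vehicle. For Srebf2 the count was 2 of 4 and the difference 0.06 (interval -0.11 to 0.23). Scap (0.03) and Insig2 (-0.06) had intervals that spanned 0.

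**Figure D2:**
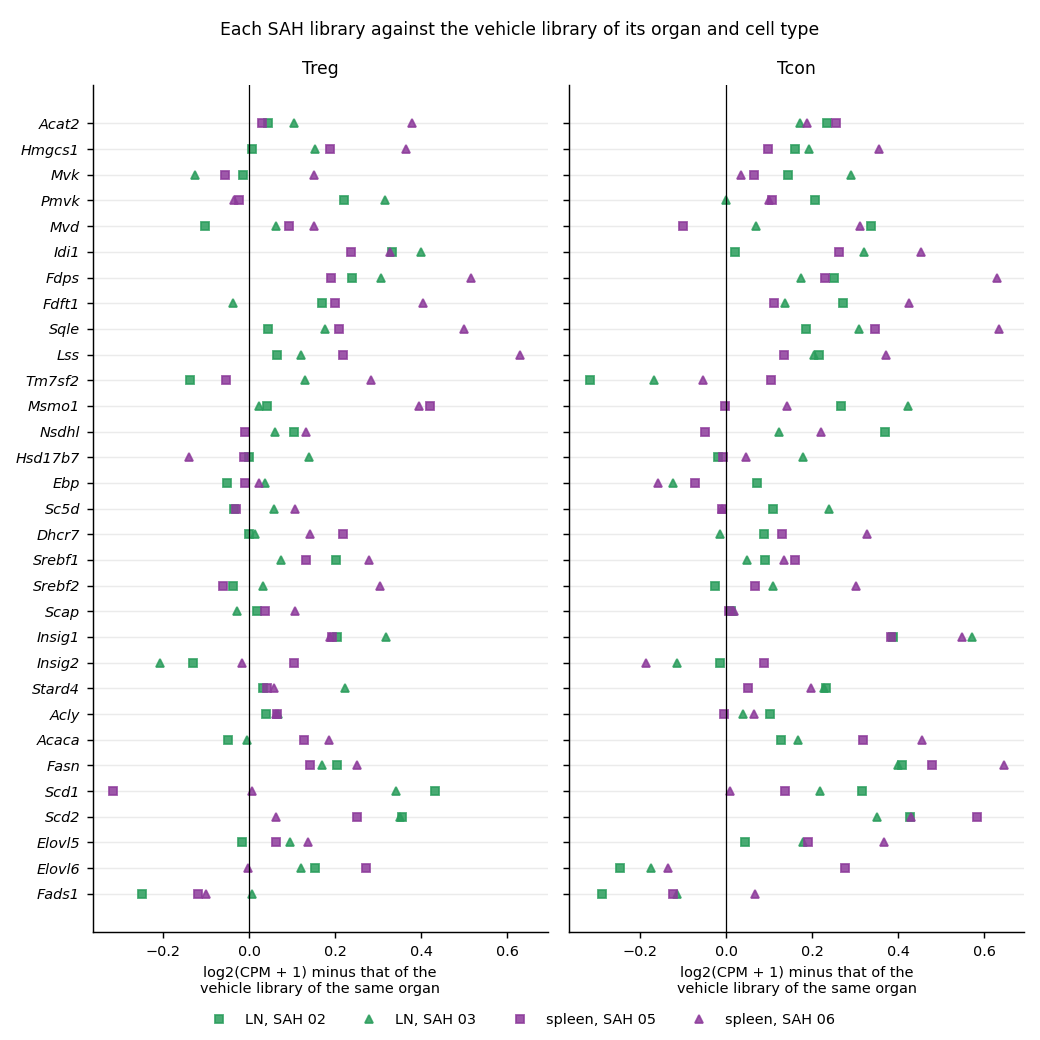
Each SAH library minus the vehicle library of the same organ and cell type, in log2(CPM + 1) (horizontal axes), for the 31 genes ordered by role, with Treg on the left and Tcon on the right. Green marks lymph node (squares 02, triangles 03) and purple marks spleen (squares 05, triangles 06). In Tcon, 17 genes have all 4 points right of 0, and in Treg 13; no gene has all 4 points left of 0.

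The SAH effect was then compared between the cell types in 1 model of all 12 libraries. No gene was called, among the 31 or among all 9784 (0% called), with 2 of the 31 and 453 of all genes at an unadjusted p below 0.05 (limma). The difference for Fasn, the effect in Tcon minus the effect in Treg, was 0.29 (SE 0.081, adjusted p = 0.658). For Insig1 it was 0.25 (SE 0.088, adjusted p = 0.919) and for Scd2 0.19 (interval -0.01 to 0.40). With the library number as a block, which pairs the Treg and the Tcon library of 1 number, 0.777% of all genes were called and Fasn was the 1 member called (0.29, adjusted p = 0.0148). Signs were shared by most of the set: 24 of 31 genes had a positive estimate in each cell type (32.4% of all 9784 genes) and 3 (Ebp, Fads1 and Insig2) a negative one (31.8%). In 11 of 31, all 4 SAH libraries were above their vehicle in Treg and again in Tcon, against 4.75% of all genes: Acat2, Fasn, Fdps, Hmgcs1, Idi1, Insig1, Lss, Scd2, Sqle, Srebf1 and Stard4. The labels do not say whether the Treg and the Tcon library of 1 number share a mouse, so these counts may not be independent of each other.

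**Figure D3:**
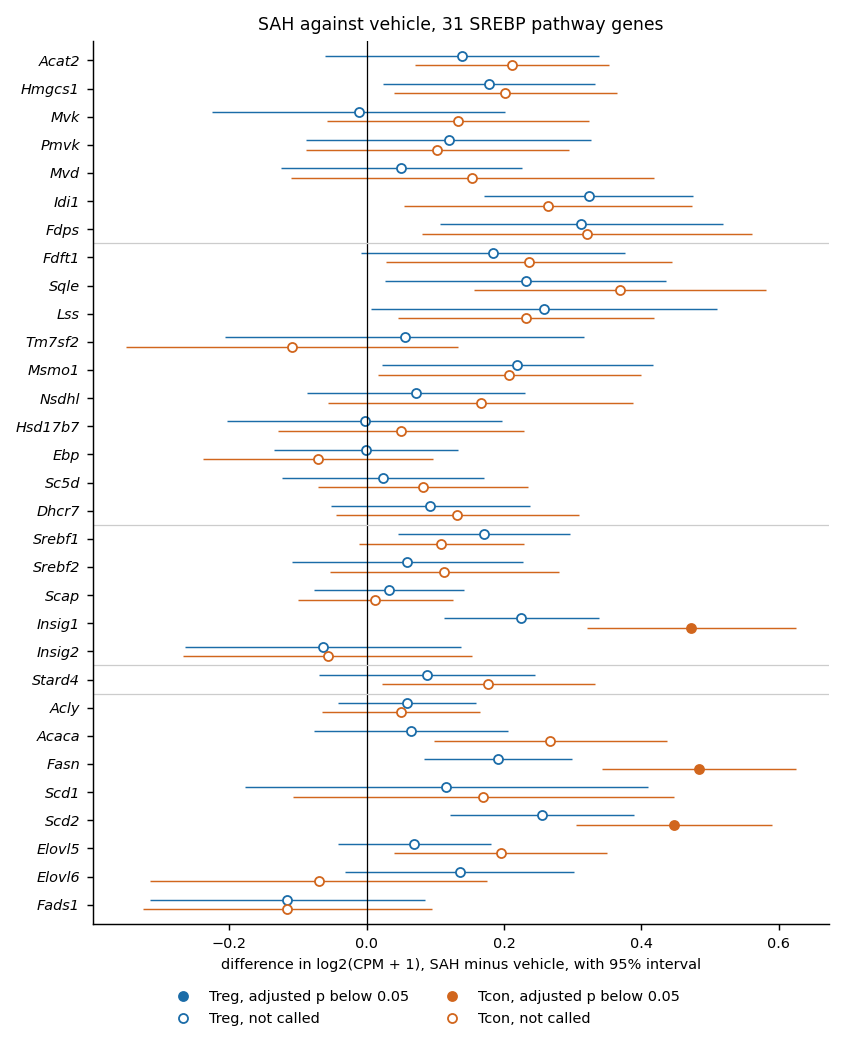
Difference between SAH and vehicle in log2(CPM + 1) (horizontal axis) with its 95% interval for the 31 genes, Treg in blue and Tcon in orange; filled points passed an adjusted p of 0.05. The 3 filled points are Insig1, Fasn and Scd2 in Tcon, at 0.47, 0.48 and 0.45.

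Between organs, Idi1, Sqle and Lss of cholesterol synthesis and the regulator Srebf2 were higher in spleen, and Scd2 was lower, in both cell types. In Treg, 12 of 31 genes were higher in spleen (8.71% of all genes) and 2 were lower (6.01%). All 3 spleen libraries lay above all 3 lymph node libraries in 15 of 31 genes (16.8% of all genes) and below them in 3 (15.1%). The median over the set was 0.14, where that of all Treg genes was -0.0028.

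The genes higher in spleen Treg were mostly of cholesterol synthesis: Hmgcs1, Idi1 and Fdps of the mevalonate pathway and Fdft1, Sqle, Lss, Msmo1 and Nsdhl of the sterol branch. Idi1 spanned 15.8 to 21.1 CPM in the lymph node libraries and 25.8 to 32.6 CPM in those of spleen (difference 0.62, SE 0.067, adjusted p = 2.03e-05, limma). Sqle (chromosome 15, 59315077 to 59331192) spanned 14.6 to 16.7 CPM and 19.6 to 28.1 CPM in the same order (0.56, SE 0.090, adjusted p = 0.000711). In neither gene did the organs overlap. Fdps (0.52), Lss, the lanosterol synthase (0.44), Fdft1, the squalene synthase (0.38), Hmgcs1 (0.33), Msmo1 (0.30) and Nsdhl (0.24) followed, with adjusted p up to 0.0321. The calls of Hmgcs1, Lss, Msmo1 and Nsdhl were lost without library 02 (adjusted p from 0.0571 to 0.159), and the last 3 of these also without 03. Nsdhl was also lost without 01, 04 or 06 and with equal totals (0.0593 to 0.167), Msmo1 without 05 (0.0788), and Lss and Msmo1 without the trend (0.0570 and 0.0615).

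Among the regulators of Treg, Insig1 and Srebf2 were higher in spleen and Srebf1 was lower. Srebf2 (chromosome 15, 82147181 to 82205379) had 237 to 249 CPM in lymph node and 272 to 351 CPM in spleen (0.30, SE 0.074, adjusted p = 0.0129). Insig1 had 80.9 to 101 CPM in lymph node and 116 to 133 CPM in spleen (0.47, SE 0.049, adjusted p = 1.53e-05). Srebf1 (chromosome 11, 60199089 to 60222581) had 104 to 119 CPM in lymph node and 88.1 to 107 CPM in spleen, so its organs overlapped (-0.19, SE 0.055, adjusted p = 0.0353). The Srebf1 call was lost without library 01, 02, 04 or 05 (adjusted p from 0.0934 to 0.228) and without the intensity trend (0.124). That of Srebf2 was lost without library 02 (0.125) and without the trend (0.0961).

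Scd2 went the other way. It was at 158 to 203 CPM in lymph node Treg and at 81.5 to 97.1 CPM in spleen Treg, a fall by 1.08 on the log2 scale (SE 0.059, adjusted p = 2.16e-08, limma). The same gene was at 82.5 to 111 CPM in lymph node Tcon and 39.4 to 59.4 CPM in spleen Tcon (-0.97, SE 0.061, adjusted p = 9.23e-06). Scd2 was the 1 gene of the 31 whose spleen libraries lay wholly below the lymph node libraries in each cell type, against 3.69% of all genes. Its close relative Scd1 differed by -0.33 in Treg (adjusted p = 0.103) and -0.29 in Tcon (adjusted p = 0.225). Acly (0.16) and Elovl6 (0.28) were higher in spleen Treg, and Fasn differed by 0.06 (interval -0.05 to 0.16). The Elovl6 call was lost without the trend and without any 1 of libraries 01 to 05 (adjusted p from 0.0617 to 0.0886). That of Acly was lost with equal totals, without the trend and without any 1 of 01 to 04 (0.0521 to 0.152).

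In Tcon, 4 of 31 genes were higher in spleen (3.28% of all genes) and 1 was lower (1.46%). Higher were Idi1 (0.38, adjusted p = 0.0419), Sqle (0.40, adjusted p = 0.0334), Lss (0.34, adjusted p = 0.039) and Srebf2 (0.30, adjusted p = 0.039), and lower was Scd2. All 5 were among the 14 called in Treg, in the same direction. Unlike in Treg, the organs overlapped in Tcon for Idi1 and Sqle. Idi1 spanned 29.1 to 36.6 CPM in lymph node Tcon and 34.8 to 48.0 CPM in spleen Tcon. Sqle spanned 16.6 to 20.8 CPM and 19.8 to 31.3 CPM in the same order. The organs did not overlap in Tcon for Lss, Srebf2 and Scd2. Spleen lay wholly above lymph node in 8 of 31 genes (10% of all genes) and wholly below in 3 (9.33%). In Treg the calls dropped to 6 without library 02, 9 without 03 and 8 without the intensity trend. In Tcon they dropped to 2 without 01 or 04 and to 1, Scd2, without 02, 03 or 06 or without the trend. Whether the organ difference itself differs between Treg and Tcon was not tested.

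**Figure D4:**
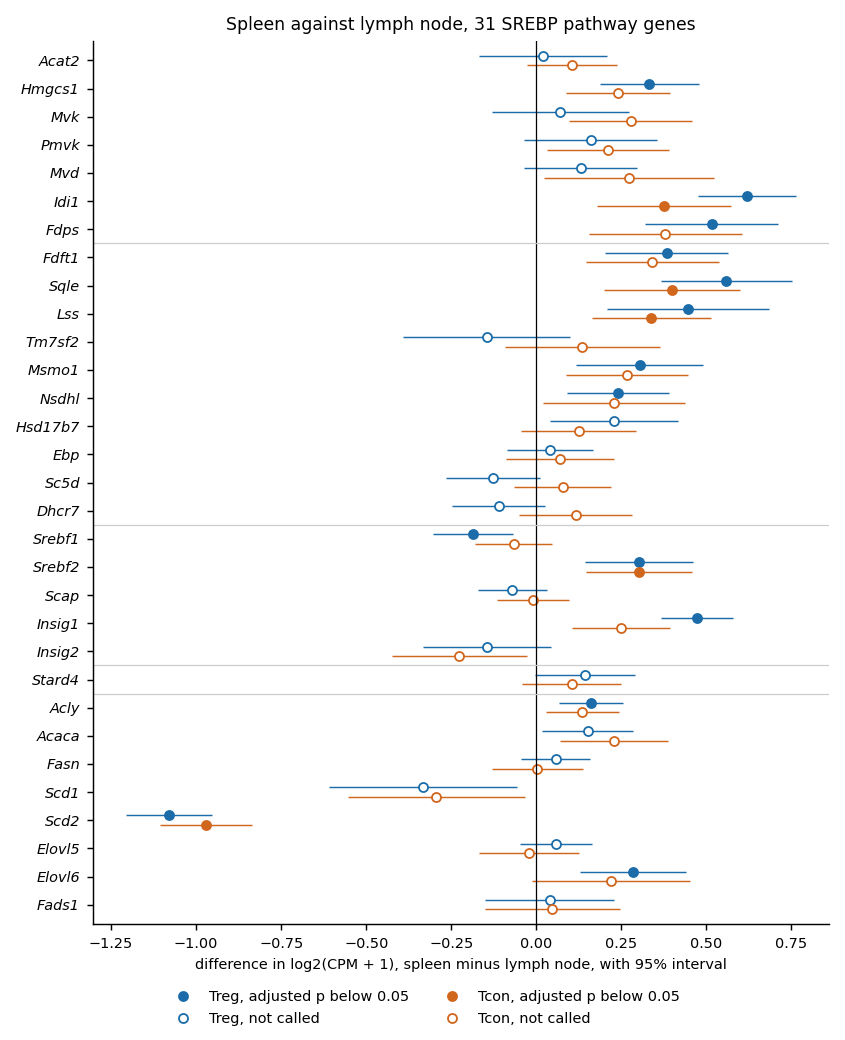
Difference between spleen and lymph node in log2(CPM + 1) (horizontal axis) with its 95% interval for the 31 genes, Treg in blue and Tcon in orange; filled points passed an adjusted p of 0.05. Scd2 stands alone at -1.08 and -0.97, while Idi1, Sqle, Lss and Srebf2 are filled on the right in both cell types.

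Genes around the pathway were taken from 4 lists. Of other SREBP pathway genes, 3 of 16 measured in Tcon rose after SAH (0.88% of all genes) and 0 of 14 in Treg did (0.135%), and none fell (0.162% and 0.0673%). Aacs, which makes acetoacetyl-CoA in the cytosol, was at 16.6 CPM in each vehicle library of Tcon and at 22.4 to 25.1 CPM with SAH (0.48, SE 0.070, adjusted p = 0.0166). Acsl3, an acyl-CoA synthetase, was at 22.5 CPM with vehicle and 30.4 and 38.1 CPM with SAH in lymph node Tcon, and at 19.0 CPM with vehicle and 24.6 and 29.8 CPM with SAH in spleen Tcon (0.53, SE 0.10, adjusted p = 0.0469). In Treg, Aacs differed by 0.36 (adjusted p = 0.141) and Acsl3 by 0.28 (adjusted p = 0.646). Neither Tcon call held without library 01, 03, 04 or 06, with adjusted p from 0.0538 to 0.253 in limma, nor without the intensity trend (0.0574 and 0.110). That of Acsl3 was also lost with a pseudocount of 5 (0.0520) and with equal totals (0.0559). Between organs, 3 genes of the list were higher in spleen Treg (8.71% of all genes) and 1, Gpam, was lower (6.01%), and 3 were higher in spleen Tcon (3.28%). The Gpam call was lost without library 01, 02, 04 or 06 and without the trend (adjusted p from 0.0578 to 0.327).

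The liver X receptors (LXRs) sense oxysterols and switch on cholesterol efflux, and Srebf1 is also among their known targets. Of 8 measured genes of that list, Abca1 rose after SAH in Treg, and Abca1 and Abcg1 rose in Tcon, against 0.135% and 0.88% of all genes called higher. Abca1, an exporter of cholesterol, was at 91.4 CPM with vehicle and 132 and 123 CPM with SAH in lymph node Treg, and at 46.7 CPM with vehicle and 59.3 and 54.9 CPM with SAH in spleen Treg (0.38, SE 0.061, adjusted p = 0.0209). In Tcon it was at 61.3 CPM with vehicle and 89.0 and 81.3 CPM with SAH in lymph node, and at 37.0 CPM with vehicle and 50.8 and 42.6 CPM with SAH in spleen (0.40, SE 0.079, adjusted p = 0.0496). Within each organ both SAH libraries of Abca1 were above vehicle, in each cell type. Abcg1, a second sterol exporter, was at 184 and 122 CPM with vehicle and at 243, 244, 151 and 149 CPM with SAH in Tcon (0.35, SE 0.051, adjusted p = 0.0166); in Treg it differed by 0.14 (adjusted p = 0.578). Between organs both exporters fell in spleen, Abca1 by 1.08 in Treg and by 0.81 in Tcon and Abcg1 by 0.65 and 0.67, with adjusted p up to 0.000117. Of the 8 genes, 1 was called higher in spleen Treg (8.71% of all genes) and 2 lower (6.01%). In spleen Tcon 0 were called higher (3.28%) and 3 lower (1.46%). Apoe of this list went the other way, with estimates of 0.61 in Treg and 0.24 in Tcon. The Treg call of Abca1 was lost without library 01, 02 or 03 (adjusted p from 0.0935 to 0.797). The Tcon call of Abcg1 was lost without 01, 03 or 04 (0.0871 to 0.161), and that of Abca1 without 01, 03, 04 or 05 (0.106 to 0.313). Without the intensity trend all 3 were lost (0.0804 to 0.249), and the Tcon call of Abca1 was lost with equal totals (0.0749) and with a pseudocount of 5 (0.0552).

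Among 7 genes of SREBP processing and INSIG turnover, none was called in a comparison of SAH with vehicle. The smallest p in Tcon belonged to Erlin2, an adaptor in the degradation of INSIG-bound proteins (-0.21, SE 0.077, adjusted p = 0.245), and in Treg to Mbtps2, the site-2 protease that releases SREBPs (-0.12, adjusted p = 0.904). Of 9 genes of cholesterol trafficking and storage none was called either: Npc1, the lysosomal cholesterol exporter, differed by 0.16 in Tcon (adjusted p = 0.268) and Gramd1b, a sterol transfer protein, by 0.11 in Treg (adjusted p = 0.714). Neither list changed in the organ comparison, with 0 genes called in Treg and 0 in Tcon.

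Foxp3 was at 655 to 726 CPM in Treg and 19.6 to 24.9 CPM in Tcon, with organs and treatments overlapping. Il2ra, the gene of CD25, was at 742 to 788 CPM in lymph node Treg and 520.4 to 597 CPM in spleen Treg (-0.43, adjusted p = 0.000182). Depth in the listed genes, estimated from the smallest step between values, was 36442420 to 48888678 reads per library, and the lowest of the 31 genes, Scd1, had at least 195 reads per library in Treg and 78 in Tcon, a counting error of up to 7.16% and 11.3%. Genes of other cell types differed between organs. Every listed gene reached at least 1.98 CPM in 3 libraries in Treg and 1.97 CPM in 3 libraries in Tcon. A gene below that level in all 3 lymph node libraries was listed only if all 3 spleen libraries reached it. Its direction was then fixed by the listing. This holds at least for Slc4a1, for Alas2, Jchain, Csf1r, Lyz2 and Klrb1c in Treg, and for Klrb1c in Tcon. These genes enter the sums and counts of their lists below. Of 8 red cell genes, Slc4a1 and Alas2 alone were listed in Treg. They summed to 0.626 to 0.849 CPM in lymph node Treg and to 16.3, 10.7 and 139 CPM in spleen libraries 04, 05 and 06. In Tcon only Slc4a1 was listed, at 0 in lymph node and at 4.21, 3.38 and 49.997 CPM in spleen. Library 06 was also the highest of the 6 for the summed mevalonate and sterol genes. In it, 22 of 31 genes in Treg (49.8% of all genes) and 21 in Tcon (48.8%) were higher than in library 05. For lymph node library 03 against 02 the counts were 20 of 31 in Treg (51.2%) and 15 in Tcon (49.4%). The 6 measured myeloid genes summed to 30.9 to 34.4 CPM in lymph node Treg and 80.1 to 123 CPM in spleen Treg, with Adgre1, Clec9a, Flt3, S100a8, S100a9 and Cd14 of that list of 12 not listed. In Tcon, 5 of the 12 summed to 23.9 to 26.0 and 54.7 to 57.8 CPM. Of 9 CD8 and NK genes, 6 were listed in Tcon, with sums of 40.6 to 46.1 CPM in lymph node and 78.5 to 102 CPM in spleen. Of these, 4 were called higher in spleen (3.28% of all genes) and 0 lower (1.46%). In Treg, 5 were listed, with sums of 40.6 to 41.1 and 33.5 to 34.8 CPM. Of those 5, 2 were called higher in spleen (8.71% of all genes) and 1 lower (6.01%). Klrb1c, an NK cell receptor, was at 0.332 to 0.664 CPM in lymph node Tcon and at 23.6 CPM with vehicle and 10.9 and 13.4 CPM with SAH in spleen Tcon. Of 6 plasma cell genes 3 were listed. Called higher in spleen were 2 in Treg (8.71% of all genes) and 2 in Tcon (3.28%). Jchain, the joining chain of antibodies, was higher in spleen by 6.03 in Treg and 5.35 in Tcon. Xbp1 of the same list differed by 0.13 in Treg and by -0.0029 in Tcon. In spleen Tcon, Jchain was at 102 CPM with vehicle and 36.7 and 38.9 CPM with SAH, while SAH against vehicle was not called for Jchain (adjusted p = 0.164) or Klrb1c (adjusted p = 0.335, limma). The part of these cells in the organ and SAH differences was not tested. Without library 06, 13 of the 14 Treg organ calls held, and in Tcon Scd2 alone of the 5.

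Proliferation genes, which activated T cells raise with lipid synthesis, were measured as a list too. Of 18 in Treg none was called after SAH, where 0.135% of all genes were called higher and 0.0673% lower. In Treg 17 estimates were above 0, with sums of 783 and 780.3 CPM with vehicle against 797 to 878 CPM with SAH. In Tcon 1 of 12 was called higher (0.88% of all genes) and 0 lower (0.162%). The called gene was Pcna, at 251 and 265 CPM with vehicle and 307 to 332 CPM with SAH. Of the 12 estimates 7 were above 0 and 5 below, with a median of 0.03. Without Pcna the other 11 summed to 283 CPM with vehicle and 300.1 and 273 CPM with SAH in lymph node Tcon, and to 317 CPM with vehicle and 309 and 330.5 CPM with SAH in spleen Tcon. Those sums were above vehicle in 1 of 2 SAH libraries of each organ. In the organ comparison 12 of 12 estimates were above 0 in Tcon, with a median of 0.20, and 0 were called. In Treg 6 of 18 were above 0 and 12 below, with a median of -0.10. Of these 18, 3 were called lower in spleen (6.01% of all genes) and 0 higher (8.71%). The part of proliferating cells in the SAH and organ differences was not tested.

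**Figure D5:**
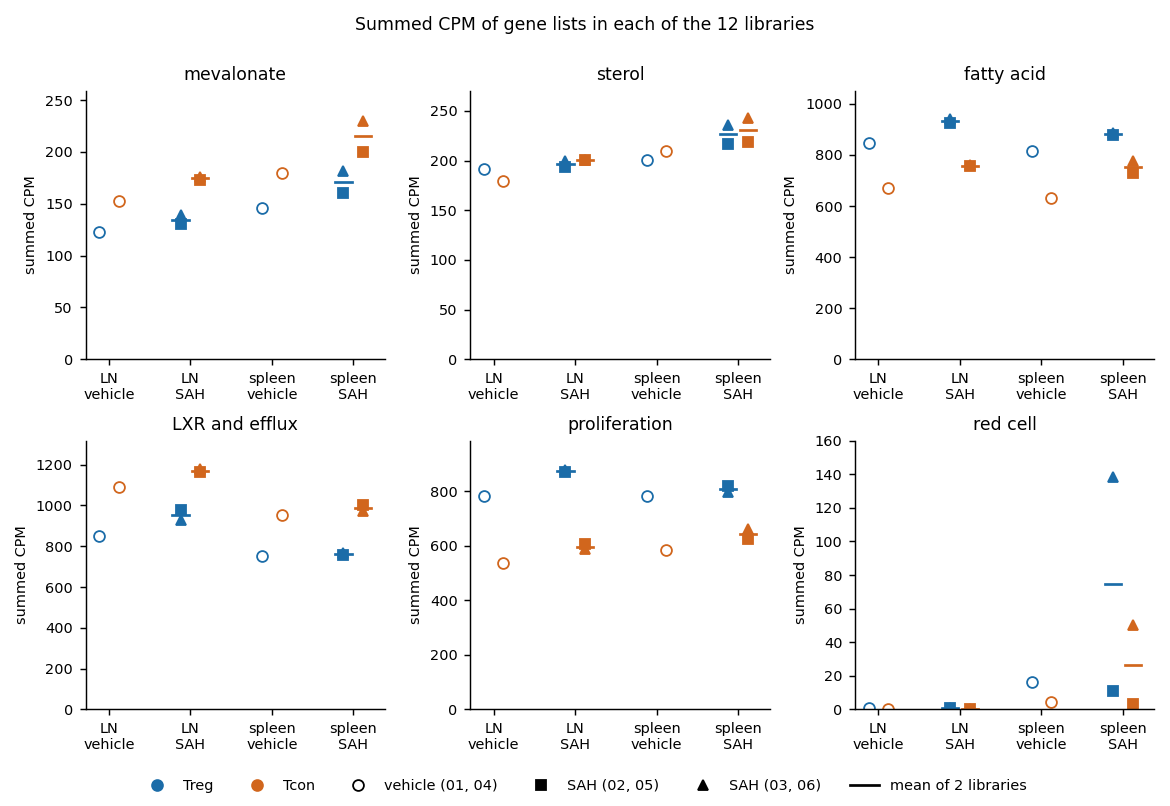
Summed CPM (vertical axes, starting at 0) of 3 groups of the 31 genes and of the LXR and efflux, proliferation and red cell lists in each library, with symbols as in the plot of 6 genes by library. Red cell RNA is highest in library 06 (139 CPM in Treg, 49.997 CPM in Tcon), the library in which mevalonate genes also sum highest (182 and 230.2 CPM).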

How the data were processed

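RNA of Treg and Tcon was sequenced from a stranded mRNA kit, per the labels' protocols. The submitters' processing notes name TopHat, Bowtie, edgeR and build mm10, with no versions; the counter and annotation are not named there. Per cell type there is 1 table, deposited with a signal per gene and library that is called CPM, per the file headers. Column totals ran from 971928 to 1.02143e+06, and the equal totals alternative removed these differences between libraries. The deposited log2 fold change, false discovery rate (a p-value adjusted over genes) and up or down score are the authors' comparison and are quoted only by name. Every listed gene reached 1.98 CPM (Treg) or 1.97 CPM (Tcon) in at least 3 libraries, so lower genes were not analysed here.

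Values were tested as log2(CPM + 1) with limma 3.58.1 in R 4.3.3 (empirical Bayes with intensity trend, two-sided, Benjamini-Hochberg over all genes, called below 0.05). Organ and treatment were terms of 1 model within a cell type (3 residual degrees of freedom), and the difference between cell types used all 12 libraries (6). Fold changes on this scale understate those of low genes, and intervals are 95%. Deviations from the group means of same-numbered Treg and Tcon libraries correlated at 0.438 (lymph node SAH) and 0.556 (spleen SAH) over 9784 genes; the labels give the shared number but not what it marks. The fit was tested on simulated data. Full statistics go to called genes, to the 5 smallest p of each SAH comparison and to Insig1, Insig2, Srebf1, Srebf2 and Scap; around the pathway, to genes called after SAH and the smallest p of each list. 1 gene that this rule names is not reported here. Genes and lists were chosen with earlier results of these data known. Alternatives were pseudocounts of 0.1 and 5, a minimum of 5 CPM in 3 libraries, equal totals, median centring, 1 symbol per identical set, no trend, a replicate block, and each library number left out. Coordinates are from GENCODE vM21 on mm10.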

Additional observations from a re-analysis of the deposited data

Results flagged for a closer look

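For 4 genes, each in 1 cell type, both SAH libraries lay on opposite sides of their vehicle library in the 2 organs. In Treg, Pmvk, a mevalonate kinase step, had a ratio of SAH to vehicle of 1.23 in lymph node and 0.978 in spleen, and Hsd17b7, a sterol reductase, 1.06 and 0.946. Acaca in Treg had the reverse order, 0.981 in lymph node and 1.12 in spleen. Sc5d, a sterol desaturase, had 1.13 in lymph node Tcon and 0.993 in spleen Tcon. The difference between organs was not tested for these genes, and each ratio rests on 1 vehicle library.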

How the results depend on the processing

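Directions and calls of the 5 comparisons were recomputed with pseudocounts of 0.1 and 5, a minimum of 5 CPM in 3 libraries, equal totals, median centring, 1 symbol per identical set, no intensity trend and each library number left out. Of the 31 genes, 0 were called after SAH in Treg and 0 to 2 when a library was left out. In Tcon, 3 were called, 0 to 4 with a library left out and 0 with no intensity trend. Between organs, 14 were called in Treg, 6 to 14 with a library left out and 8 with no trend, and 5 in Tcon, 1 to 7 with a library left out and 1 with no trend. With 1 vehicle library per organ, these fits assume that a lone library varies like the others. For the difference between cell types, 0 of the 31 were called, also with each library left out, and 1 (Fasn) with the replicate block, which raised the calls over all genes from 0 to 76.

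Equal totals turned the calls over all genes from 906 higher and 625 lower to 718 and 834 for spleen Treg, and from 87 and 16 to 48 and 28 for SAH in Tcon, while the median of all genes moved from -0.0028 to -0.031 and from -0.0028 to -0.046. They also moved the median of the 31 genes in Tcon from 0.17 to 0.12, as did a pseudocount of 5, and turned Scap in Tcon to -0.0322 and Npc1 in Treg to -0.00580. Without library 02 the organ median in Treg was 0.097. Calls over all genes after SAH moved too: 14 higher and 7 lower in Treg became 69 and 26 without library 06, 44 and 12 without 05, and 3 and 4 without the trend, and in Tcon 173 and 53 without library 02, and 8 and 3 without the trend. With a library left out, small SAH differences in Treg changed sign: Insig2 ran from -0.170 to 0.0435, Srebf2 from -0.0278 to 0.128, Scap from -0.00512 to 0.0710, Acaca from -0.0272 to 0.156, Npc1 from -0.0108 to 0.0404 and Erlin2 from -0.105 to 0.00938. In Tcon, Insig2 ran from -0.116 to 0.000603, Elovl6 from -0.211 to 0.0708 and Gramd1b from -0.0348 to 0.134. The cause was not tested. The planned edgeR and DESeq2 fits were not run, since the values were treated as a normalized signal and not as counts.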
